A study of Homo sapiens with 3 samples.

Results

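The mitochondrial ribosomal protein genes were examined as a family in maps of RNA bound by RPL22-HaloTag and RPL22L1-HaloTag. Members were the protein-coding genes of the RefSeq annotation of GRCh38 whose symbol is MRPL or MRPS followed by a number, with or without a letter. This gave 77 members of 20033 protein-coding genes, 49 named for the large subunit and 28 for the small. Their bounds spanned 677 to 111543 bases, with a median of 8618 against 24130 over all protein-coding genes. The members together made up 0.110% of the summed length of protein-coding genes.

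The cells were of the HCT116 line, an established line from human colorectal carcinoma, grown in McCoy's 5a medium with serum. They carried HaloTag only, RPL22-HaloTag or RPL22L1-HaloTag, and each of these 3 genotypes was represented by 1 library. RPL22 is a protein of the large subunit of the cytosolic ribosome and RPL22L1 is its paralog. GoldCLIP-seq crosslinks RNA to protein and uses the covalent HaloTag bond for capture under denaturing washes. The deposited peaks of RPL22-HaloTag cells, 154000 in number, are called the RPL22 set, and the 254413 peaks of RPL22L1-HaloTag cells the RPL22L1 set. Cells with tag alone were not analysed here, and no value below has a tag background beside it. The labels do not say how the fusions were introduced or whether a line was 1 clone. There were no replicates and read depth is unknown, so values describe 2 libraries and no test was made. Intervals are 95%, exact Clopper-Pearson for shares and exact Poisson for densities, and cover counting error only.

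All 7 epithelial markers held summits in both sets, among them KRT8 with 11 and 11 and EPCAM with 4 and 20 in the RPL22 and RPL22L1 sets. Of 5 markers of other cell types, PTPRC and CD3E held none. COL1A1 held 9 and 6, PECAM1 held 6 and 2, and ALB held 0 and 1. A summit therefore also occurred in genes that mark other cell types, and expression of the genes was not measured.

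The mitochondrial ribosome translates the few messages of the mitochondrial genome, which encode core subunits of the respiratory chain. Its RNAs come from the mitochondrial genome, but all of its proteins are encoded in the nucleus, made on cytosolic ribosomes and imported. The large subunit forms peptide bonds, and its exit tunnel opens at the inner membrane. The small subunit binds the message and reads the codons. Structural names mark proteins shared with all ribosomes (u), shared with bacteria (b) or found in mitochondria (m), and the RefSeq synonyms gave such a name for 75 members. By that name MRPS30 (mL65) and MRPS18A (mL66) belong to the large subunit, in spite of their symbols.

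Promoter sequence from RefSeq, 250 bases before to 50 after an annotated start, was at hand for 69 members in 85 windows. In these windows lay, wholly or in part, 12 peaks of the RPL22 set in 10 members and 19 peaks of the RPL22L1 set in 15 members. The same count was not made for other protein-coding genes, so it has no background beside it. Of the member peaks in windows 6 and 15 were flat, the term used here for a peak exactly 30 bases wide with its summit at offset 15. Every other peak is called shaped. Both sets placed a peak in a window of 2 members, MRPS12 and MRPL54. At MRPS12, which encodes uS12m of the decoding centre, the peaks shared 27 bases, and they are shown because they are overlapping peaks of both sets in a promoter window. MRPL30 is shown because its window held more than 1 whole peak of the RPL22 set, and MRPS22 because it held the highest-scoring peak of that set to lie wholly in a window. That MRPS22 peak spans 35 bases, 139344022 to 139344056, of which 30 around the summit are shown. All are GRCh38.p14 on the plus strand, 30 bases each. Capitals mark the bases shared by both sets in MRPS12 and the summit with 2 bases on either side in the others.
MRPS12, RPL22 set, chr19:38930954-38930983: AGCTGGATTCAGCGTGTCCGCGACCTCacc
MRPS12, RPL22L1 set, chr19:38930951-38930980: agaAGCTGGATTCAGCGTGTCCGCGACCTC
MRPL30, RPL22 set, chr2:99180988-99181017: ggAAGTTctcctccgcctcaacccaggatg
MRPL30, RPL22 set, chr2:99181174-99181203: gtagcACTTGgtagttcttcctctgctctg
MRPS22, RPL22 set, chr3:139344027-139344056: atggcgcccctcggaacaaCTGTAttgctg

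The MRPS12 peaks had a score of 33 in the RPL22 set and 323 in the RPL22L1 set, ranks 68706 and 22278, and both were flat. The scores are the authors' own values, on a scale of each set, and are used only for rank within a set. The 2 MRPL30 peaks both scored 45. The MRPS22 peak scored 117, rank 16892. G and C made up 60.0% and 50% of the bases shown for MRPL30, 63.3% and 60.0% for MRPS12 and 56.7% for MRPS22.

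Most members held peaks in both sets. For the RPL22 set, 66 of 77 members held at least 1 summit within their bounds, 85.7% (75.9 to 92.6), against 68.3% of all protein-coding genes. For the RPL22L1 set, 73 members did, 94.8% (87.2 to 98.6), against 69.8%. The same 66 members held a summit in both sets, 85.7% of members against 63.2% of protein-coding genes. No member held summits in the RPL22 set only. The 7 members with summits in the RPL22L1 set only were MRPL18 and MRPS7 with 5 each, MRPL49 with 4, MRPL36, MRPL53 and MRPL54 with 2 each, and MRPS24 with 1. Just outside these bounds, RPL22 summits lay 4 bases before the start of MRPL54 and 83 before that of MRPL49. Of 20033 protein-coding genes, 13692 held a summit in the RPL22 set, 13988 in the RPL22L1 set and 12659 in both. The background thus had genes in 1 set only both ways, and the RPL22L1 set is 1.65 times as long. At least 3 summits were held by 71.4% and 79.2% of members, against 51.7% and 54.9%. The protein-coding background covers genes of every expression level.

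**Figure D1:**
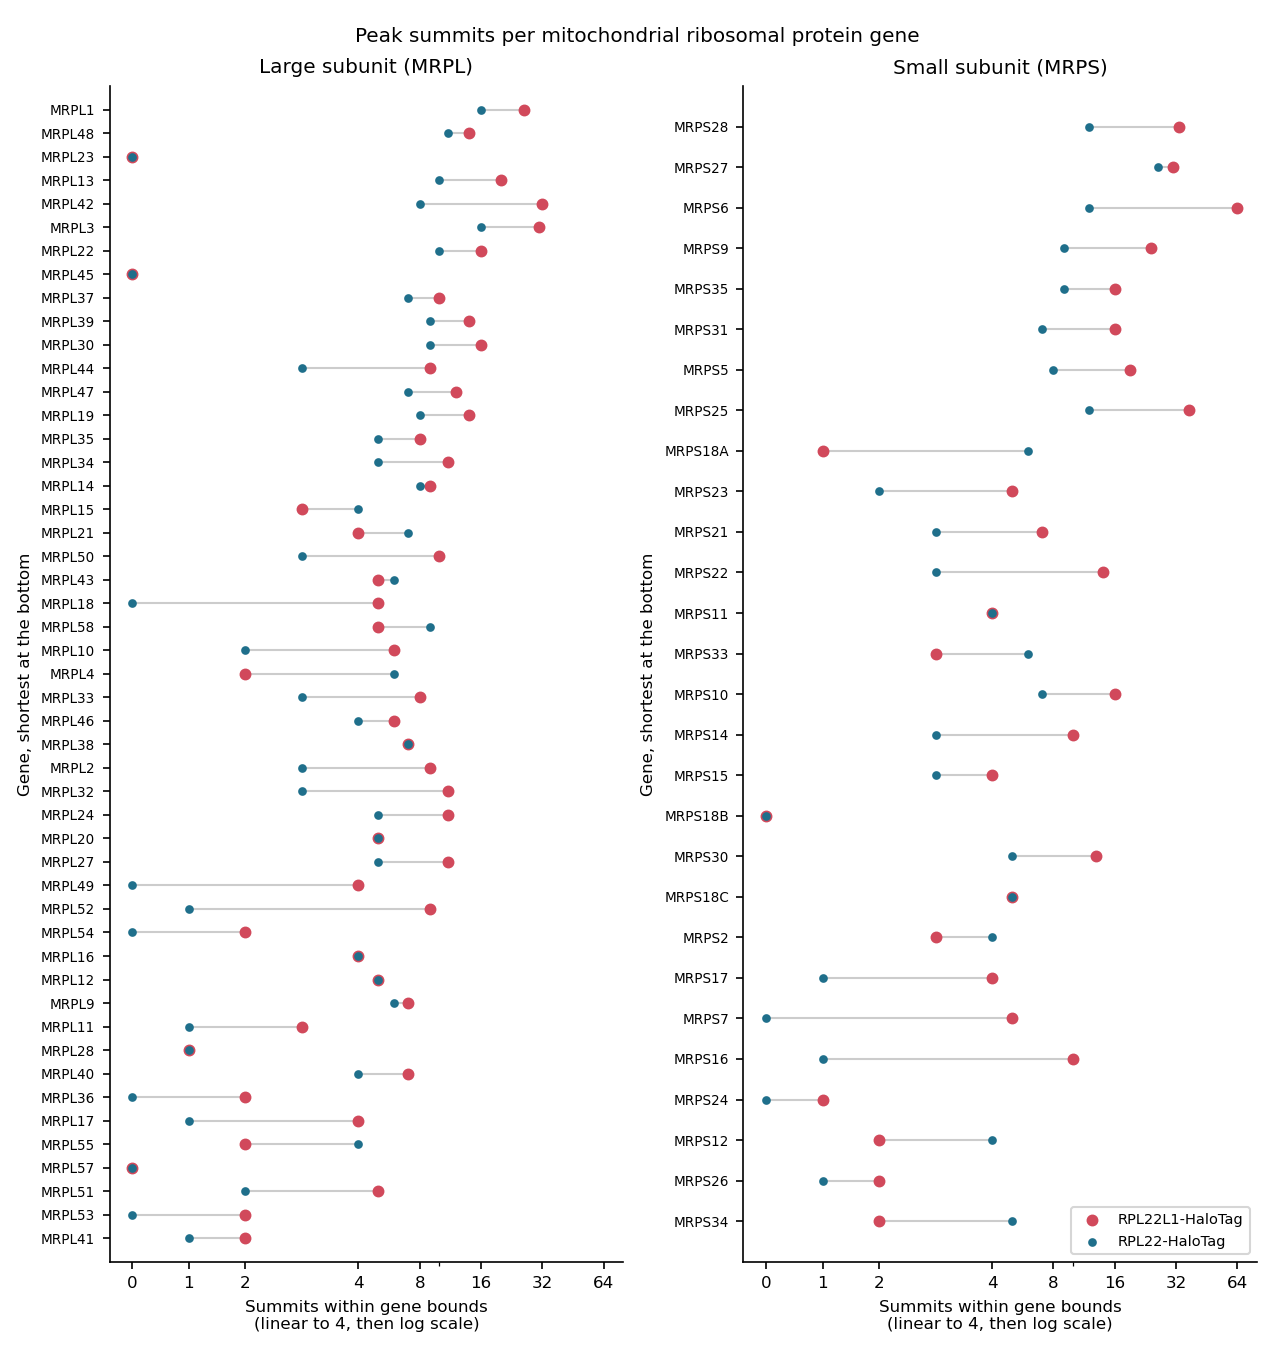
Summits within the bounds of each of the 77 genes, one row per gene, with the small blue point for the RPL22-HaloTag set and the larger red point for the RPL22L1-HaloTag set (the axis is linear up to 4 and logarithmic above). Red lies to the right of blue in 55 genes and to the left in 11, MRPS6 reaches 64 summits, and 4 genes sit at 0 in both sets. These are whole sets of 154000 and 254413 peaks. At equal size 41 genes had more summits in the RPL22L1 set and 27 in the RPL22 set. The same counts were not made for other protein-coding genes.

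The members held 392 summits in the RPL22 set and 760 in the RPL22L1 set, a ratio of 1.94, where all peaks in protein-coding genes gave 1.68. Per gene the median was 4 and 7 summits, and the most were 26 in MRPS27 and 64 in MRPS6. Within the RPL22 set 11 members held 1 or 2 summits, 46 held 3 to 9 and 9 held at least 10. Within the RPL22L1 set these numbers were 12, 32 and 29. The class with at least 10 thus held more members in the longer set.

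Relative to length, the density was 0.276 summits per kb (0.249 to 0.304) in the RPL22 set and 0.534 (0.497 to 0.574) in the RPL22L1 set. All protein-coding genes had 0.103 and 0.174 summits per kb, so the members were 2.66 and 3.08 times as dense. Their share of all summits counted in protein-coding genes was 0.302% and 0.349%, against 0.110% of the length. Longer members held more summits, with Spearman's rho across the 77 genes of 0.65 and 0.64. Summit numbers in the 2 sets had a rho of 0.72 over the same genes, 0.50 per kb and 0.58 for shaped peaks. The genes share their libraries, and length enters both numbers of the first of these values.

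Short genes are denser in summits in both sets, so the members were set beside protein-coding genes of like length. Among genes under 10 kb, 32 of 41 members (78.0%) held a summit in the RPL22 set and 39 (95.1%) in the RPL22L1 set, against 39.6% and 42% of protein-coding genes. Between 10 and 30 kb, 22 of 23 members did in both sets (95.7%), against 70.4% and 71%. Above 30 kb, 12 of 13 did in both sets (92.3%), against 85.6% and 87%. The gap to the background was widest in the shortest class and narrow in the longest, where most genes of any kind held a summit.

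The density showed a gap in every length class. Members under 10 kb had 0.580 summits per kb in the RPL22 set and 0.997 in the RPL22L1 set, against 0.257 and 0.374 for protein-coding genes of that length. The ratios of members to background were 2.26 and 2.67 in this class, 1.65 and 1.84 from 10 to 30 kb, and 1.89 and 2.5 above 30 kb. None of the intervals of the members reached the background value of its class.

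**Figure D2:**
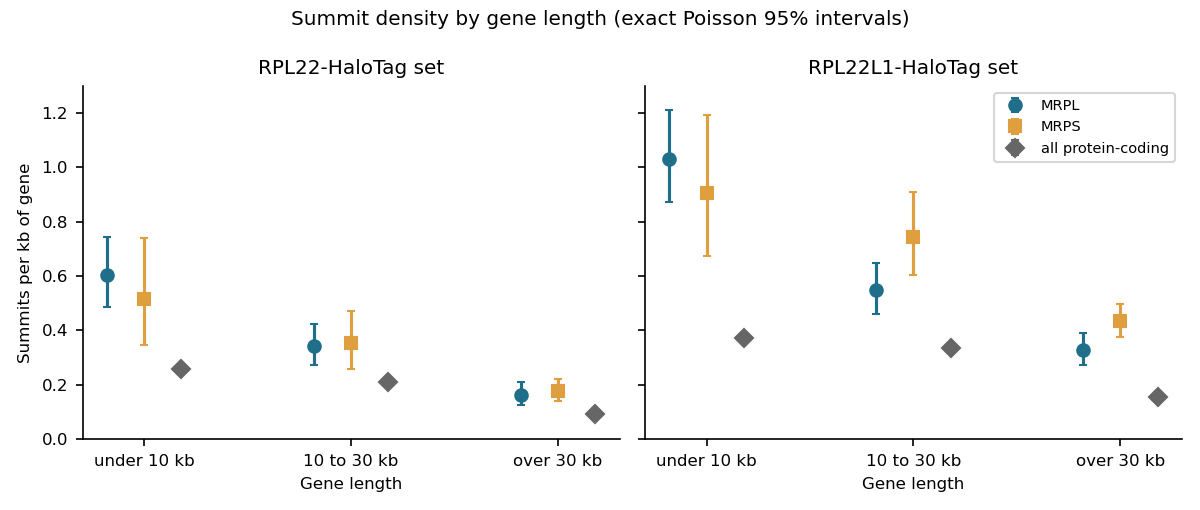
Summits per kb in 3 classes of gene length for the large-subunit (MRPL) genes, the small-subunit (MRPS) genes and all protein-coding genes, with exact Poisson 95% intervals (those of the background are narrower than the symbols). Members lie above the background in each class and set, and under 10 kb they reach 0.580 and 0.997 together against 0.257 and 0.374.

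The subunits were compared next. In the RPL22 set 41 of 49 large-subunit genes (83.7%) and 25 of 28 small-subunit genes (89.3%) held a summit, and in the RPL22L1 set 46 (93.9%) and 27 (96.4%) did. The large-subunit genes held 234 summits in the RPL22 set, 0.305 per kb (0.267 to 0.346), and the small-subunit genes 158, 0.241 per kb (0.205 to 0.282). The ratio of large to small was 1.26 (1.03 to 1.55). In the RPL22L1 set they held 409 and 351 summits, 0.533 per kb (0.482 to 0.587) and 0.536 (0.482 to 0.596), a ratio of 0.993 (0.859 to 1.15). The large-subunit genes were shorter, with a median of 8105 against 11699 bases.

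Length and neighbouring genes moved this ratio. Within length classes the ratio of large to small in the RPL22 set was 1.17 under 10 kb, 0.968 from 10 to 30 kb and 0.919 above 30 kb. For the RPL22L1 set, it was 1.14, 0.734 and 0.758. The small-subunit genes had the higher value in both longer classes of both sets, but the intervals of the subunits overlapped each time. In the RPL22 set the densities from 10 to 30 kb were 0.342 (0.273 to 0.423) for large and 0.354 (0.259 to 0.472) for small. Above 30 kb, MRPS6 held 64 of the 203 small-subunit summits in the RPL22L1 set. When summits that also lay in another gene were left out, the ratio was 1.54 (1.23 to 1.94) and 1.45 (1.22 to 1.71). These ratios still divide by full gene lengths, with the bases shared with other genes included. MRPS28 then kept 0 summits in either set, but its 111543 bases still counted towards the small subunit. The ratios were not computed over unshared bases, so they do not show a large-subunit excess there. Of the member summits, 58 of 392 and 148 of 760 lay in another gene as well, and 52 of the latter were summits of MRPS6 within SLC5A3. The number of genes per class is small, with 6 large-subunit and 7 small-subunit genes above 30 kb.

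By structural family the proteins shared with bacteria had the highest density. For the RPL22 set, the bacterial family had 0.404 summits per kb (0.320 to 0.503), the universal family 0.266 and the mitochondrial family 0.275. Within the RPL22L1 set these were 0.915 (0.786 to 1.06), 0.488 and 0.496. The bacterial family includes MRPS6, whose bounds contain SLC5A3, and had 0.531 and 0.912 per kb without it. Its genes were the shortest, with a median of 5434 bases against 10762 and 9678. At least 1 summit was held by 17 of 18 bacterial, 23 of 26 universal and 25 of 31 mitochondrial members in the RPL22 set, and by 18, 25 and 28 in the RPL22L1 set.

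Shaped peaks made up a larger share in the members than over all protein-coding genes. Within the RPL22 set 184 of 392 member peaks were flat, 46.9% (41.9 to 52.0), against 61.5% in protein-coding genes. In the RPL22L1 set 526 of 760 were flat, 69.2% (65.8 to 72.5), against 76.4%. Shaped peaks of members numbered 208 and 234, so the surplus of the RPL22L1 set lay mostly in flat peaks. The same was true over all protein-coding genes, with 49918 and 51437 shaped peaks but 79781 and 166109 flat ones. At least 1 shaped peak was held by 61 members in the RPL22 set, 79.2% (68.5 to 87.6) against 51.7% of protein-coding genes. For the RPL22L1 set the count was 64, 83.1% (72.9 to 90.7) against 45.4%.

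A larger share of member peaks than of all peaks in protein-coding genes lay at bases covered in both sets. In the RPL22 set 130 of 392 member peaks shared at least 1 base with a peak of the RPL22L1 set, 33.2% (28.5 to 38.1), against 19.1% in protein-coding genes. From the side of the RPL22L1 set 135 of 760 did, 17.8% (15.1 to 20.7), against 11.4%. Among shaped peaks the shares were 55.8% (48.7 to 62.6) against 39.7%, and 34.2% (28.1 to 40.7) against 26.5%. Among flat peaks they were 7.61% against 6.12%, and 10.5% against 6.80%. The densities of summits also differ between members and background, and their part in the overlap was not tested. The subunits had like shares, 33.3% and 32.9% for large and small in the RPL22 set and 19.6% and 15.7% in the RPL22L1 set.

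**Figure D3:**
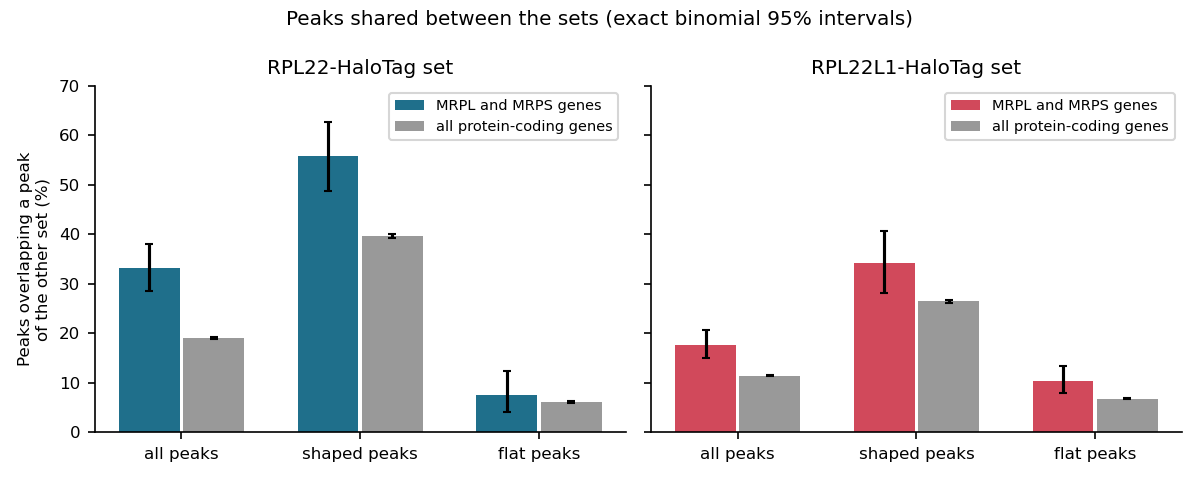
Percent of peaks that share at least 1 base with a peak of the other set, for all, shaped and flat peaks, in members (coloured bars) and in all protein-coding genes (grey bars), with exact binomial 95% intervals. Shaped peaks of members overlap most often, 55.8% in the RPL22-HaloTag set and 34.2% in the RPL22L1-HaloTag set.

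With flat peaks included, member peaks stood by score above the middle of the RPL22 set and near the middle of the RPL22L1 set. Their median score in the RPL22 set was 45, at percentile 67.2 of that set, where peaks in protein-coding genes were at 55.4. For the RPL22L1 set, the median was 127, at percentile 50.7, against 49.9. Percentiles count the peaks at or below a score, so tied scores raise them. Without flat peaks the members were at percentiles 59.9 and 58.2, close to each other. These are percentiles among the shaped peaks of each set, with no value for protein-coding genes beside them. The top 5% of the RPL22 set held 35 member peaks, 8.93% of them (6.30 to 12.2), against 5.27% of peaks in protein-coding genes. The top 5% of the RPL22L1 set held 57, 7.50% (5.73 to 9.61), against 5.13%. The highest peak lay in the top 5% for 27 of 66 members in the RPL22 set, 40.9% (29.0 to 53.7) against 30.9%, and for 36 of 73 in the RPL22L1 set, 49.3% (37.4 to 61.3) against 39%. Both of these intervals include the background.

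Position along the gene could be read for 59 members with a known strand and at least 3 kb. For the RPL22 set, they had 0.678 summits per kb in the first kb, 0.814 in the last kb and 0.243 in between. Within the RPL22L1 set the densities were 1, 1.46 and 0.509. Both ends were therefore denser than the middle in both sets. Each gene gives 1 kb to each end, but longer genes weigh more in the middle. Members over 30 kb had 0.171 summits per kb in the RPL22 set, against 0.580 under 10 kb. Gene length and position are thus mixed in this contrast, and zones were not compared at like gene length, in members or against other genes. Over 14419 protein-coding genes chosen in the same way the values were 0.330, 0.357 and 0.0987 in the RPL22 set, and 0.304, 0.689 and 0.169 in the RPL22L1 set. Members exceeded the background 2.05-fold, 2.28-fold and 2.46-fold in the first kb, last kb and middle of the RPL22 set. In the RPL22L1 set the factors were 3.29, 2.12 and 3.02. Exons were not used here, so these zones are parts of the gene's span and not of its message.

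**Figure D4:**
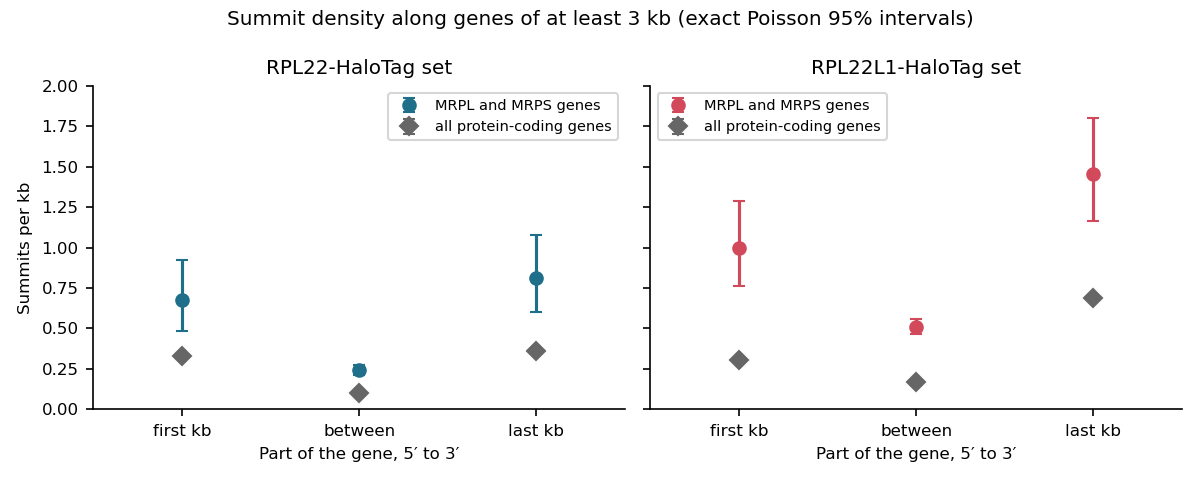
Summits per kb in the first kb, the last kb and the stretch between them, for 59 members and 14419 protein-coding genes of at least 3 kb with known strand, with exact Poisson 95% intervals. In members the last kb has the highest density, 0.814 in the RPL22-HaloTag set and 1.46 in the RPL22L1-HaloTag set.

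The highest-scoring member peaks of the large subunit were in MRPL3, which encodes uL3m, a core protein near the peptidyl transferase centre. MRPL3 (chr3:131462212-131502971) held 16 summits in the RPL22 set and 31 in the RPL22L1 set. Its highest peak scored 5038 in the RPL22 set, at 131479088 to 131479141, rank 264. For the RPL22L1 set, it scored 2372, at 131479090 to 131479140, rank 612. Both lie within SNORA58, a small nucleolar RNA gene inside MRPL3, so the signal cannot be assigned to either transcript from unstranded peaks. Outside it the highest MRPL3 peaks scored 148 and 454.

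MRPL24 encodes uL24m, a protein near the exit tunnel. It held 5 summits in the RPL22 set and 11 in the RPL22L1 set, within chr1:156737303-156742716. Its highest peaks scored 736 and 868 and overlapped, at 156742198 to 156742409 in the RPL22 set and 156742364 to 156742411 in the RPL22L1 set. Both lie where MRPL24 and HDGF overlap, as did 3 of the summits in each set.

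MRPL35, which encodes bL35m, held 5 and 8 summits, and none lay in another gene. Its highest peaks began at the same base, 86210607 on chromosome 2, and ended at 86210637 in the RPL22 set and 86210639 in the RPL22L1 set. They scored 223, in the top 3.81% of the RPL22 set, and 1264, in the top 0.524% of the RPL22L1 set. MRPL46, encoding mL46, held 4 and 6 summits and had its highest score of 513 in the RPL22 set, in the top 0.968%. Its highest score in the RPL22L1 set was 278, in the top 13.3%, and the MRPL46 peaks at these places did not overlap.

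MRPS21, which encodes bS21m, had the highest score of the small subunit in the RPL22 set and came after MRPS28 in the RPL22L1 set. MRPS21 held 3 summits in the RPL22 set and 7 in the RPL22L1 set, and no other gene overlapped them. Its highest peaks scored 1722 at chr1:150294306-150294339 in the RPL22 set and 1719 at chr1:150294299-150294369 in the RPL22L1 set, ranks 453 and 845. At the other end of the gene the RPL22 set had 1 peak of score 636, which 2 peaks of the RPL22L1 set with scores 1218 and 1359 overlapped. The shaped peaks of MRPS21 therefore lay at its ends, and the RPL22 set had only a flat peak of score 21 in between.

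MRPS30 encodes mL65, a large-subunit protein by structure. It held 5 summits in the RPL22 set, all shaped, with scores of 277, 484, 163, 130 and 122. Of these, 4 overlapped a peak of the RPL22L1 set, where MRPS30 held 13 summits with scores of up to 768. MRPS5, which encodes uS5m at the entry of the message, held 8 and 19 summits. The highest of the RPL22L1 set scored 1500, at chr2:95100834-95100915, and overlapped no peak of the RPL22 set. The highest of the RPL22 set scored 372 and overlapped an RPL22L1 peak of score 477.

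**Figure D5:**
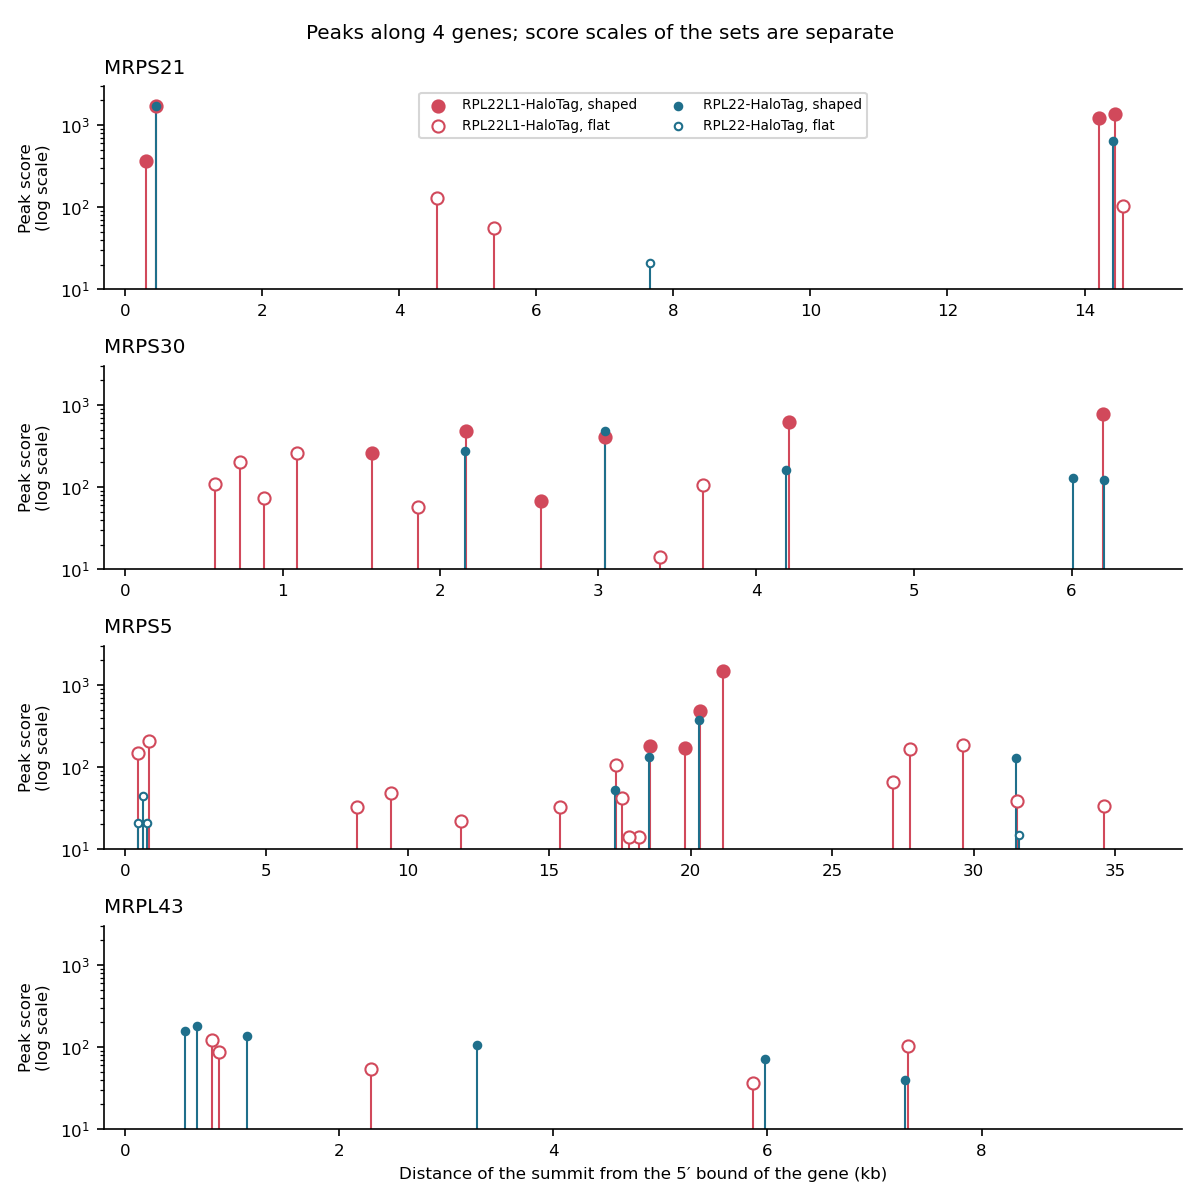
Peak score (log axis) against the distance of the summit from the 5′ bound of the gene in MRPS21, MRPS30, MRPS5 and MRPL43, with filled points for shaped and open points for flat peaks. MRPS21 has its high scores at both ends, MRPS5 has an RPL22L1-HaloTag peak of score 1500 with no overlapping RPL22-HaloTag peak, and all RPL22L1-HaloTag peaks of MRPL43 are flat.

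MRPS28 held 12 and 33 summits, and its highest RPL22L1 peak scored 1769 at chr8:80001134-80001197, with no overlapping RPL22 peak. The highest RPL22 peak of MRPS28 scored 147. The readthrough gene TPD52-MRPS28 contains all of MRPS28, so none of these summits belongs to MRPS28 alone.

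The highest peaks of the 2 sets overlapped in 17 of the 66 members with summits in both, 25.8% (15.8 to 38.0), against 12.3% of protein-coding genes. In 8 members both overlapping peaks were in the top 5% of their set, 12.1% (5.38 to 22.5), against 6.29%, so this smaller count lay within counting error of the background. Besides MRPL3, MRPL24, MRPL35 and MRPS21 these were MRPL4, MRPL12, MRPL37 and MRPL42. MRPL12 encodes the stalk protein bL12m, which engages translation factors. Its highest peaks scored 210 and 450, at chr17:81706984-81707035 and chr17:81706919-81707014. MRPL4, encoding the tunnel protein uL4m, had scores of 313 and 493 with both summits at base 10254617 of chromosome 19. MRPL37 (mL37) had scores of 438 and 611, and MRPL42 (mL42) 195 and 958.

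Summit density was ranked among members with at least 3 summits in a set, and short genes led. Within the RPL22 set MRPS34 (mS34) led with 5 summits in 1240 bases, 4.03 per kb. MRPS12 followed with 4 summits and 1.80 per kb, MRPL9 (bL9m) with 6 and 1.56, MRPL55 (bL31m) with 4 and 1.53, and MRPL12 with 5 and 1.20. Within the RPL22L1 set MRPL51 (mL51) led with 5 summits in 1377 bases, 3.63 per kb. MRPS16 (bS16m) had 10 summits and 2.63 per kb, all within the antisense gene DNAJC9-AS1. MRPL27, which encodes bL27m near the peptidyl transferase centre, MRPL24 and MRPL32 (bL32m) had 11 summits each, with 2.07, 2.03 and 2.01 per kb. Below that minimum, MRPL41 spans 677 bases and had 1 and 2 summits, 1.48 and 2.95 per kb, and MRPL53 had 2.86 per kb from 2 summits of the RPL22L1 set.

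The most summits in both sets together were in MRPS6, MRPS27 and MRPS25. MRPS6, encoding bS6m, held 12 summits in the RPL22 set and 64 in the RPL22L1 set. Of these 10 and 52 lay within SLC5A3, a gene for a myo-inositol transporter inside its bounds. MRPS27 encodes mS27, a pentatricopeptide repeat protein, and held 26 and 31 summits over 100838 bases. MRPS25 (mS25) held 12 and 37, of which 4 and 17 lay in the overlap with NR2C2. MRPS6 thus had most of its difference between sets in bases shared with another gene. MRPS25 still held 8 and 20 summits outside other genes, and MRPS27 had close numbers in both sets.

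To compare the sets at like length, the RPL22L1 set was reduced to its 154000 highest-scoring peaks. Of 59 members with at least 5 summits in both sets together, 5 (8.47%) had a log2 ratio of summit number plus 1 of at least 1 towards the RPL22L1 set, against 8.97% of protein-coding genes. A ratio of -1 or less, towards the RPL22 set, was found in 8 (13.6%), against 14.8%. The median log2 ratio was 0 in members and background. The members' shares were near the background in both directions. In the whole sets, which differ in length, 29 of 64 members (45.3%, 32.8 to 58.3) passed the limit towards RPL22L1, against 32% of protein-coding genes, and 3 (4.69%, 0.977 to 13.1) the limit towards RPL22, against 5.53%. With flat peaks left out before the sets were made equal, 5 of 42 members (11.9%, 3.98 to 25.6) passed in each direction, against 13.8% towards RPL22L1 and 19.7% towards RPL22. The larger share towards RPL22L1 was thus seen in the whole sets and not at equal size.

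Single members differed. In the equal-size sets MRPL52 (mL52) held 1 and 5 summits in the RPL22 and RPL22L1 sets, a log2 ratio of 1.58. MRPS6 held 12 and 34, a ratio of 1.43, and MRPL42 held 8 and 22, a ratio of 1.35. MRPS14 (uS14m) held 3 and 9, a ratio of 1.32, which was 0.42 when flat peaks were left out first. MRPL10, which encodes the stalk base protein uL10m, held 2 and 5, a ratio of 1. MRPL10 turned to -0.58 without flat peaks.

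In the other direction MRPS18A held 6 summits in the RPL22 set and 0 in the equal-size RPL22L1 set, with 1 in the whole set. MRPL55 held 4 and 1, a log2 ratio of -1.32. MRPL4, MRPL43 (mL43) and MRPS33 (mS33) held 6 and 2 each, a ratio of -1.22. MRPS33 turned to 0.58 without flat peaks. In the whole sets MRPL55 had a ratio of -0.74, MRPL43 of -0.22 and MRPS33 of -0.81, all short of the limit. All 6 peaks of MRPL43 in the RPL22 set were shaped, with scores of 40 to 182. All 5 of MRPL43 in the whole RPL22L1 set were flat. In each set 3 of the MRPL43 summits also lay in SEMA4G. With so few summits per gene these ratios carry wide counting error.

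No summit of either set lay in 4 members, 5.19% of members against 25% of protein-coding genes. MRPL23 encodes uL23m at the tunnel exit and spans 67613 bases, MRPL45 encodes mL45, which lies between the tunnel exit and the inner membrane, and spans 26044. The others were MRPL57 (mL63) with 2427 bases and MRPS18B (mS40) with 8553. MRPS18B is a paralog of MRPS18A and MRPS18C, which held 6 and 1 and 5 and 5 summits in the RPL22 and RPL22L1 sets.

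Other genes of mitochondrial translation also held summits in most cases. Among 5 mitochondrial ribosomal proteins with other names 4 and 4 held a summit, with DAP3 (mS29) at 16 and 25 and PTCD3 (mS39) at 11 and 22. Of 22 assembly factors 20 and 21 did, of 14 translation factors all 14 in both sets, and of 17 mitochondrial aminoacyl-tRNA synthetases 16 and 15. All protein-coding genes gave 68.3% and 69.8%, those of 10 to 30 kb 70.4% and 71%, and those over 30 kb 85.6% and 87%. The 4 lists had median lengths of 4105, 21378.5, 22558.5 and 33874 bases. Densities of the lists in the RPL22 set were 0.382, 0.206, 0.262 and 0.147 summits per kb, against 0.103 over all protein-coding genes. In the RPL22L1 set they were 0.531, 0.402, 0.605 and 0.216, against 0.174. In equal-size sets, ratios of 1 or more towards RPL22L1 were found in 0 of 3, 3 of 18, 1 of 14 and 0 of 14 genes with enough summits. Ratios of -1 or less were found in 1, 0, 2 and 2. The shares over all protein-coding genes were 8.97% towards RPL22L1 and 14.8% towards RPL22. None of these genes is a member.

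The 86 cytosolic ribosomal protein genes gave the nearest comparison. They had 0.326 and 0.865 summits per kb, against 0.276 and 0.534 in the mitochondrial family. The cytosolic genes were shorter, with a median of 5046 against 8618 bases, and the densities were not compared at like length. Members under 10 kb had 0.580 and 0.997 per kb. Peaks of the cytosolic genes were less often flat, 17.6% and 40.3% against 46.9% and 69.2%. The top 5% of scores held 42.8% and 21.4% of their peaks, against 8.93% and 7.50%. Overlap with the other set was 49.2% and 19.2%, against 33.2% and 17.8%. The intervals of the families did not overlap for the flat and top shares in either set, for the density in the RPL22L1 set or for the overlap in the RPL22 set.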

How the data were processed

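Peaks were analysed for 2 GoldCLIP-seq libraries of HCT116 cells, 1 library per genotype. Per the submitters' processing notes the build was hg38 and the tools were cutadapt 4.8, STAR 2.7.10a, UMI-tools 1.1.5 and MACS3 3.0.0a6. Their settings and the control used for peak calling are not given in the sources used here. The deposited sets had 10 columns without header or strand. Each peak carries a score given by the authors, with a lowest value of 13, and other value columns held 0. The summit was read as the deposited start plus the summit offset, counted from 1.

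A summit was assigned to every RefSeq gene whose bounds contain it. For the equal-size comparison the RPL22L1 set was reduced to its best 154000 peaks by score, with ties broken by genome position. Log2 ratios used a pseudocount of 1. Computations used Python 3.11.15, numpy 2.4.6, pandas 2.3.3 and scipy 1.17.1, tested on simulated data. Alternatives were shaped peaks only, peaks at or above the median score, equal-size sets, the shortest gene only, summits in no other gene, a stricter overlap and a minimum of 3 summits.

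Members and gene lists were chosen with earlier results of these data known. Named genes were the 5 per set with the highest scores, the 5 per set with the most summits per kb among members with at least 3 summits, the 5 with the largest ratio each way among members with at least 5 summits, the 3 with the most summits, those with overlapping highest peaks in the top 5% and those without a summit. Genes named for a promoter sequence, for summits in the RPL22L1 set only, and MRPL41, MRPS18C, DAP3 and PTCD3, were chosen after their values were seen.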

Additional observations from a re-analysis of the deposited data

How the results depend on the processing

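No paired analysis was possible because each genotype had 1 library and no test was made. The limits are set by the number of summits, by unknown sequencing depth and by the lack of strand and exons. Of the alternative values for the main measures, 53 stayed close to the reported value and 31 did not, judged by its counting interval or, for counts of members past 2-fold, by a factor of 1.5. The 53 include values of the RPL22 set at equal size that could not move, because the shorter set was left whole. The cause of the 31 moves was not tested beyond the construction of each alternative. Values are given for the RPL22 set first.

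Without flat peaks the density was 0.146 and 0.165 summits per kb and the share of protein-coding summits 0.417% and 0.455%. For the RPL22L1 set, 83.1% of members then held a summit, 33.8% of peaks overlapped and the median percentile was 58.2. At or above the median score the density was 0.189 and 0.269, the flat share 27.9% and 50.5%, the share of protein-coding summits 0.335% in the RPL22 set and the overlap 23.6% in the RPL22L1 set. With sets of equal size the overlap was 26.0% and 23.5%, and the RPL22L1 set had 0.314 summits per kb and 55.3% flat peaks. The shortest gene only gave 0.482 summits per kb and a ratio of large to small of 1.15 in the RPL22L1 set. Summits in no other gene gave densities of 0.235 and 0.430, still over full gene lengths with the shared bases included. In the RPL22L1 set they gave a share of 0.310% and, over the same lengths, a ratio of large to small of 1.45.

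An overlap of at least 50% of both peaks was met by 18.9% and 9.74%. At least 3 summits were held by 71.4% and 79.2% of members. Without MRPS6, an alternative chosen after seeing the data, the share in the RPL22L1 set was 0.320%. In whole sets 29 of 64 members leaned at least 2-fold to RPL22L1 (45.3%, against 32% of protein-coding genes) and 3 to RPL22 (4.69% against 5.53%). Without flat peaks and at equal size, with 42 members left to compare, 5 leaned to RPL22 (11.9% against 19.7%). Among named members the ratio reversed without flat peaks in MRPL10, to -0.58, and in MRPS33, to 0.58. Subunits taken from structural names, also chosen after seeing the data, gave ratios of large to small of 1.33 and 1.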

Other observations

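The surroundings of the members without summits differed. Within 1 Mb of MRPS18B, 1 of 62 other protein-coding genes held a summit in the RPL22 set, 1.61% (0.0408 to 8.66), and 0 of 62 in the RPL22L1 set, which allows up to 5.78% by the exact interval. Around MRPL57 11 and 12 of 14 genes held a summit, around MRPL23 12 and 13 of 40, and around MRPL45 8 and 10 of 35. Over all protein-coding genes the shares were 68.3% and 69.8%. The surroundings of MRPS18B, MRPL45 and MRPL23 were below these shares, with upper bounds of 8.66%, 40.1% and 46.5% in the RPL22 set and 5.78%, 46.3% and 49.1% in the RPL22L1 set. Those of MRPL57, 78.6% (49.2 to 95.3) and 85.7% (57.2 to 98.2), included them.

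Among related genes, LRPPRC, whose product binds mitochondrial messages, held 30 summits in the RPL22 set and 118 in the RPL22L1 set over 110042 bases. TUFM, the mitochondrial elongation factor Tu, held 15 and 5 over 3938 bases. VARS2 and MRM1 held none in either set. These genes were chosen after their values were seen.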
